A study of Mus musculus with 4 samples.

Results

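The difference between the isoproterenol responses of 2 mouse genotypes was measured gene by gene in heart ventricles: the log2 ratio of isoproterenol to saline in mice lacking P2Y6, minus the same ratio in wild-type mice. It was computed for the 13041 genes with a mean of at least 1 CPM (a gene's reads per 1000000 of the library) over the 4 libraries, out of 46603 listed genes, of which 24267 were above 0 in at least 1 library. All mice were on the C57Bl6/J background, were aged 8 to 12 weeks and received 1 intraperitoneal injection per day for 7 days. The 4 groups were wild type (WT) given saline, WT given isoproterenol at 50 mg/kg/day, P2Y6-null (P2Y6 KO, here KO) given saline, and KO given isoproterenol at the same dose. Each group held 1 library of messenger RNA, and the labels do not say whether a library came from 1 heart or a pool, nor the sex or the hour of collection. The loss of P2Y6 is not limited to 1 cell type in the labels, and ventricles hold muscle, connective tissue, vessel and immune cells, so a change in RNA per cell and a change in the number of cells cannot be told apart.

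Isoproterenol is a synthetic agonist of beta-adrenergic receptors, which raise cyclic AMP in heart muscle cells through the G protein Gs and so increase the rate and force of contraction. Given day after day it enlarges the heart and provokes fibrosis, and it is a standard way to load the heart of a mouse through this pathway. P2Y6, encoded by P2ry6, is a receptor for the extracellular nucleotide UDP that signals mainly through Gq and is found on muscle, vessel and immune cells. A difference of responses asks whether a gene reacts to the drug by another factor in 1 genotype than in the other. It differs from a plain comparison of genotypes, in which a gene can be higher in KO under both treatments and still respond alike.

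The libraries held 18771198 to 25637369 reads in the listed genes, and mitochondrially encoded transcripts took 22.5% to 28.9% of them. Ratios were scaled by TMM, which sets the bulk of genes to no change, and carry 95% counting intervals. A response or a difference was counted only when its whole interval lay beyond 1.5-fold. Since every group is a single library, nothing could be checked against replicates and no p-value was computed. Reads were not tagged by molecule, and copies of a molecule are not independent. The intervals therefore cover counting error only, and they compare these 4 libraries, not the conditions. Without TMM, in the CPM as deposited, the median difference over all members was 0.25 in place of 0.00 on the log2 scale, so directions are given relative to the bulk of genes. P2ry6 itself stood at 5.11 CPM in WT saline and 5.89 CPM in WT isoproterenol, and at 0.566 CPM and 0.533 CPM in the KO libraries. Its difference of responses was -0.53 (95% interval -1.75 to 0.68), which counting error alone can span.

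The KO pair of libraries was farther apart than the WT pair. In the KO pair 934 members (7.16%) were higher and 577 (4.42%) lower with isoproterenol, against 117 (0.897%) higher and 103 (0.79%) lower in the WT pair. The difference of responses was beyond 1.5-fold in 757 members, or 5.8%: it was higher in KO for 526 (4.03%) and lower for 231 (1.77%). Another 6613 members (50.7%) had an interval wholly within 1.5-fold, and the rest could not be placed at this depth. Of the 757, 69.5% were higher in KO, a share that became 92.7% of 1096 with the CPM as deposited. All 526 higher differences and 80 of the 231 lower ones were counted under both scalings, and 0 changed side. Lower differences are therefore the ones that rest most on the choice of scaling.

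The members fell into genotype-only, shared and opposite responses, drawn in the plot of both responses. A response in the KO pair only, with a counted difference, was found for 426 higher and 162 lower members. The WT pair alone gave 4 higher and 5 lower. Both pairs were higher for 90 members and lower for 73. Of the 90, 54 were larger in KO, 11 differed by less than 1.5-fold, 25 could not be placed and 0 were larger in WT. Of the 73, 28 were larger in KO, 10 differed by less than 1.5-fold, 35 could not be placed and 0 were larger in WT, or 2 with the CPM as deposited. After TMM the only gene beyond 1.5-fold in opposite directions was Cyp26b1, while the CPM as deposited gave 2 such genes. A further 417 higher and 342 lower members of the KO pair, and 23 higher and 24 lower of the WT pair, had no counted difference, so a response in 1 pair alone is not by itself a difference between genotypes.

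**Figure D1:**
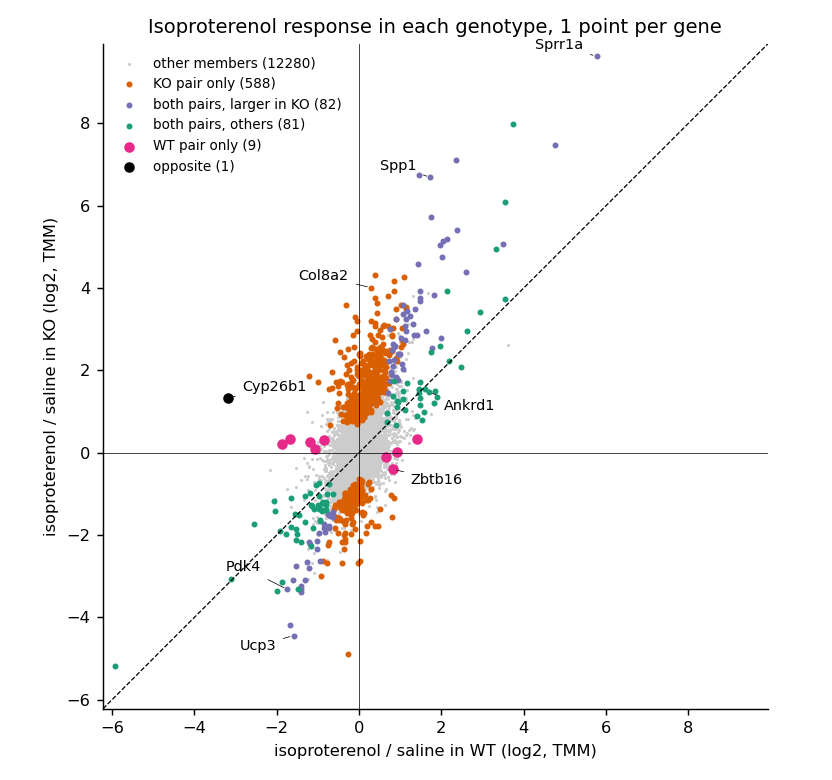
Each point is 1 of the 13041 members, with the log2 ratio of isoproterenol to saline in WT on the horizontal axis and in KO on the vertical axis; colours give the class, the dashed line marks equal responses, and each group is 1 library. The 588 genes counted in the KO pair only stretch along the vertical axis, and the 82 larger in KO lie farther from 0 than the dashed line; Cyp26b1 stands alone at the upper left.

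Direction was largely common to both genotypes even where size was not. Of the 117 members higher in the WT pair, 114 were also above 0 in the KO pair, and of the 103 lower in WT 97 were below 0 in KO. In turn, 796 of the 934 members higher in the KO pair were above 0 in WT, and 537 of the 577 lower ones were below 0. Across the members the responses had Pearson r = 0.59 and Spearman rho = 0.47, and r = 0.71 over the 4578 members with a mean of at least 30 CPM. These describe genes, which are not independent replicates, in pairs that share no library. The 103 members with a WT response between 1 and 2 on the log2 scale had a median of 1.21 in WT and 1.99 in KO, and the 19 above 2 had 2.62 and 4.96. On the other side the 81 members between -2 and -1 had a median of -1.23 in WT and -1.49 in KO. The 8 below -2 had a median of -2.36 in WT and -1.29 in KO, so that here the KO response was the smaller.

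A difference of responses is also the genotype ratio under isoproterenol minus the genotype ratio under saline, so each was split by treatment. Under saline KO and WT differed little: 32 members (0.245%) were higher in KO and 27 (0.207%) lower. Under isoproterenol 545 (4.18%) were higher and 251 (1.92%) lower. Among the 526 higher differences the median genotype ratio was -0.25 under saline and 1.10 under isoproterenol. Of these, 391 were counted only under isoproterenol, 11 only as lower under saline and 4 in both ways. A further 119 were counted under neither treatment. In 41 of the 526 the saline ratio was the larger in absolute size. The 231 lower differences had medians of 0.11 and -0.92, with 155 counted only under isoproterenol and 9 only as higher under saline. Under neither treatment were 63 counted, so these could not be placed by treatment.

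The KO isoproterenol library stood apart in most of these genes. It was the library farthest from the mean of the other 3 in 473 of the 526 higher differences (89.9%) and in 211 of the 231 lower ones (91.3%). These genes were picked by a difference that includes this library, so the shares follow in part from the choice. The share over all members was not counted. No difference of responses can be formed without the KO isoproterenol library, and whether that library reflects the group or 1 unusual sample cannot be told apart. The additive fit of genotype and treatment, which takes the difference itself as error, gave a biological coefficient of variation of 14.61%, against 6.70% between both saline libraries taken as replicates. With that larger spread added to the intervals, 171 higher and 34 lower differences were still beyond 1.5-fold.

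**Figure D2:**
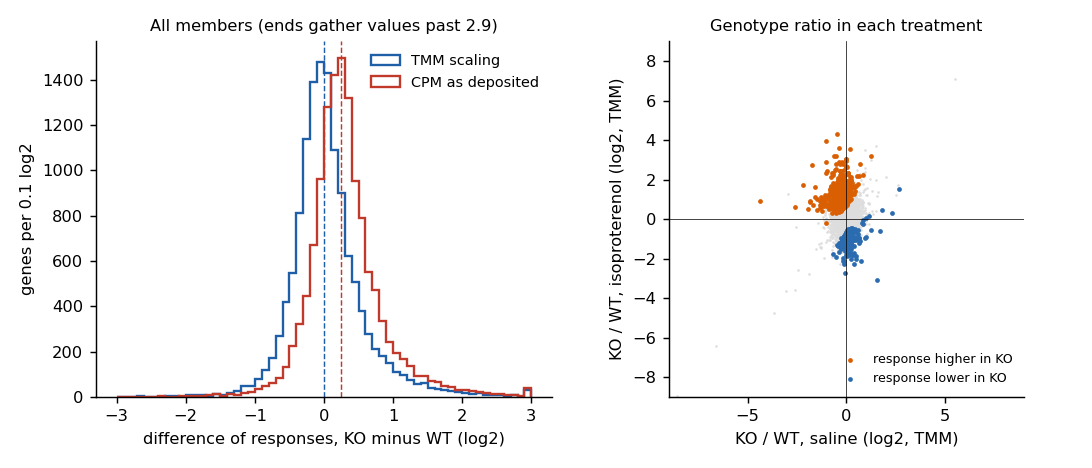
Left, the number of members per 0.1 log2 of the difference of responses, KO minus WT, after TMM scaling and in the CPM as deposited, with dashed lines at the medians of 0.00 and 0.25. Right, the genotype ratio (KO over WT, log2) under saline and under isoproterenol, 1 point per member; the counted differences spread along the isoproterenol axis, with medians of 1.10 (higher) and -0.92 (lower), and little along the saline axis.

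The opposite response of Cyp26b1 (ENSMUSG00000063415, GRCm38 chromosome 6, 84571414 to 84593908, minus strand), the enzyme that clears retinoic acid, ran through all 4 libraries. It stood at 19.6 CPM in WT saline, 2.03 CPM in WT isoproterenol, 5.62 CPM in KO saline and 16.1 CPM in KO isoproterenol. The treated WT library was thus the lowest of the 4 and the untreated WT library the highest, while the KO libraries lay between them in the reverse order. The WT response was -3.18 and the KO response 1.33 on the log2 scale, a difference of 4.52 (3.98 to 5.06). Both treatments contributed, with a genotype ratio of -1.76 under saline and 2.76 under isoproterenol. Aldh1a2, of the same pathway, did not show the low treated WT library. This gene, whose enzyme makes retinoic acid, stood at 6.08, 5.74, 6.31 and 21.8 CPM (WT with saline and with isoproterenol, then KO with saline and with isoproterenol, the order used from here on). It was high in the KO isoproterenol library alone, with a difference of 1.61 (1.17 to 2.05). Of the 10 measured members of the retinoic acid list 4 had a higher difference and 0 a lower one.

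A wider count took every member whose 2 intervals lay on opposite sides of no change, with a counted difference. It held 94 members: 43 were higher in WT and lower in KO, and 51 the reverse. This count moves with the scaling, to 209 with the CPM as deposited, and 64 members were in both. Among those lower in WT and higher in KO were receptors of myeloid cells. Fcrls, an Fc receptor-like gene of macrophages, stood at 9.36, 6.51, 7.05 and 27.1 CPM, a difference of 2.20 (1.81 to 2.60), and the activating receptor Cd300lb at 1.21, 0.483, 0.697 and 2.93 CPM, a difference of 3.06 (1.78 to 4.34). In each the treated WT library was the lowest and the treated KO library the highest. Nppb, which encodes the stress hormone BNP, was lower with isoproterenol in the WT pair and higher in the KO pair. By the 1.5-fold rule after TMM it belonged to the class counted in the KO pair only. It stood at 73.3, 42.9, 127 and 232 CPM, a difference of 1.38 (1.24 to 1.51). The reverse pattern was shown by Timp4, the tissue inhibitor of metalloproteinases most typical of heart. It stood at 21.7, 29.5, 22.7 and 9.96 CPM, a difference of -1.89 (-2.18 to -1.60). Efnb3, a membrane ephrin, stood at 86, 89.4, 91.9 and 37.8 CPM. Its treated KO library was the only low one, and its difference was -1.59 (-1.74 to -1.44).

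The promoters of 1 leading gene per class are shown because the members of a class were high or low in the same libraries. They are RefSeq sequences of build GRCm38.p6, 250 bases before to 50 after the start site, 5′ to 3′ on the gene's strand. Col8a2 (chr4:126286544-126286843, plus strand) stands for the genes higher in KO only, Timp4 (chr6:115252156-115252455, minus strand) for those lower in KO only, Ankrd1 (chr19:36119795-36120094, minus strand) and Vldlr (chr19:27216234-27216533, plus strand, the first of 2 listed) for shared responses of like size, and Cyp26b1 (chr6:84593761-84594060, minus strand) for the opposite response. Timp4 was the first of its class, in the order of naming, with a listed promoter that could be shown. Capitals mark any of the motifs searched on both strands: AP-1 (TGANTCA), TEAD (GGAATG), CRE (TGACGTCA), E-box (CACGTG), the TATA box (TATAAA), the CCAAT box, the motif GGGCGG of the GC box, the glucocorticoid receptor's TGTTCT, the nuclear receptors' AGGTCA, and the CArG box. Neighbouring matches can overlap.
Col8a2: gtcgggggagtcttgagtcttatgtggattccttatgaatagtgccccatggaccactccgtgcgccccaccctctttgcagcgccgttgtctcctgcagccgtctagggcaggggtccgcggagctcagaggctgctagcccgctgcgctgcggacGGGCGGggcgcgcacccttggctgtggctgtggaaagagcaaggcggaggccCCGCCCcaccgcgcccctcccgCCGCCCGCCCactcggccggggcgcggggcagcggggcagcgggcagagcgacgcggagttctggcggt
Timp4: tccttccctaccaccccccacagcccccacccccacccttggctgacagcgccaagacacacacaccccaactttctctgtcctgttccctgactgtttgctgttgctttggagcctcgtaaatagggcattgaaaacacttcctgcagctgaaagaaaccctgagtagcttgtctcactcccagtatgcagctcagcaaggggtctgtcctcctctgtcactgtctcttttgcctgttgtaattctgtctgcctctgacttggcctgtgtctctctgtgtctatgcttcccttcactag
Ankrd1: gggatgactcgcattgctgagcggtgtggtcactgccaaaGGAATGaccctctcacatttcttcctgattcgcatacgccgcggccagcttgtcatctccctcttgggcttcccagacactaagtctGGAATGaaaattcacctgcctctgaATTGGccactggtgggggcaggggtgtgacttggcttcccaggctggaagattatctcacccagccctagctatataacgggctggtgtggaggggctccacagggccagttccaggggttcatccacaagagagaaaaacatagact
Vldlr: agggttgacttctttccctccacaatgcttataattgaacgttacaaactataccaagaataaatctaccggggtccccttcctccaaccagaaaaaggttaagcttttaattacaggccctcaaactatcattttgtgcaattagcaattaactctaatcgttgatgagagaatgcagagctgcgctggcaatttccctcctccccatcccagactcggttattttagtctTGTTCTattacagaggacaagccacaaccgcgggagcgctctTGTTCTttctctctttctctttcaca
Cyp26b1: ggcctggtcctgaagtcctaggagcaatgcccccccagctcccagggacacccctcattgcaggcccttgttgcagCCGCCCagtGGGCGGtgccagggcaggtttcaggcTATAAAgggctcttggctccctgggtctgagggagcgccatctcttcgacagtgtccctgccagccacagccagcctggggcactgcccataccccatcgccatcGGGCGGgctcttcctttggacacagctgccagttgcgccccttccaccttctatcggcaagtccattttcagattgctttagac
Col8a2 held 4 GC boxes, of which 2 overlap, Ankrd1 2 TEAD motifs and a CCAAT box, Vldlr 2 copies of TGTTCT, and Cyp26b1 3 GC boxes and a TATA box, while the Timp4 window held none of these letters. Over 9717 members with 12479 listed promoters, TGANTCA was found in 5.19% of promoters, and in 9.83% of the 407 promoters of genes higher in KO only. AGGTCA was found in 12.4% of the promoters of all members and in 22.6% of the 133 promoters of genes lower in KO only. TATAAA was found in 7.29%, and in 13 of the 43 promoters (30.2%) of genes higher in both and larger in KO. Over all 32851 promoters of the table these shares were 7.81%, 16.3% and 13.6%. These 3 of the 10 motifs were picked after their shares were seen. TGANTCA was not particular to the class named: its share was 8.27% for genes lower in KO only. It was 9.3% and 10.5% for genes higher and lower in both and larger in KO, and 9.09% for shared responses of like size. AGGTCA was in 31.6% of the 19 promoters of genes lower in both and larger in KO. It was in 14.3% for genes higher in KO only, 4.65% for those higher in both and larger in KO, and 9.09% for shared responses of like size. TATAAA was in 10.8% and 10.5% for genes higher and lower in KO only. It was in 18.2% for shared responses of like size and 0% of the 19 promoters of genes lower in both and larger in KO. The 43 promoters named above belong to 38 genes. A match is a description of letters and was not tested as a site.

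Over the 426 members higher in the KO pair only, the median response was 0.19 in WT and 1.57 in KO. Col8a2 (ENSMUSG00000056174, chromosome 4, 126286793 to 126314330), a short-chain network collagen, stood at 1.91, 2.22, 1.26 and 23.4 CPM. It was low in 3 libraries and high in the treated KO library, a 16.1-fold ratio in KO (11.2 to 24.7) against 1.22-fold in WT (0.798 to 1.86), and a log2 difference of 3.72 (2.93 to 4.51). Col12a1, a collagen that binds to the surface of fibrils, stood at 3.74, 5.84, 2.44 and 38.8 CPM, a difference of 3.08 (2.54 to 3.63). Spon2, a secreted matrix protein, stood at 2.96, 2.56, 2.83 and 23.4 CPM, a difference of 2.99 (2.36 to 3.62). In each of these genes the treated KO library was far above the others. Col12a1 was also higher with isoproterenol in WT, by 1.64-fold (1.24 to 2.17). Membership of the KO-only class thus means that the WT interval was not wholly beyond 1.5-fold, not that WT was unchanged.

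Ms4a7, a membrane protein of macrophages, followed the same course at 4.29, 5.02, 2.57 and 27.2 CPM, with a difference of 2.91 (2.36 to 3.45). C1qtnf6, a secreted relative of complement C1q, stood at 13.6, 17.9, 7.66 and 63.1 CPM, a difference of 2.39 (2.07 to 2.70). The mitotic kinase Nek2 stood at 0.897, 0.676, 0.174 and 2.66 CPM, and the beta-tubulin Tubb2b at 2.61, 2.08, 2 and 13.2 CPM. In all of these the treated KO library was the highest of the 4 and the KO saline value the lowest. The lowest place rests on 4 reads for Nek2. For Tubb2b, with 46 reads in KO saline and 43 in WT isoproterenol, it is within counting error. Tnnt3, the fast skeletal troponin T, stood at 0.585, 0.724, 0.261 and 6.39 CPM, a difference of 3.94 (2.41 to 5.46). Nek2 and Tnnt3 were below 1 CPM in every library but the treated KO one. They passed the filter only through the library in which they are high.

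Genes higher in both pairs and larger in KO had a median response of 1.16 in WT and 3.04 in KO over 54 members. Spp1 (ENSMUSG00000029304, chromosome 5, 104435118 to 104441050), osteopontin, a matricellular cytokine, stood at 0.663, 2.12, 0.305 and 38.2 CPM. It was 3.31-fold higher with isoproterenol in WT (1.88 to 6.28) and 103-fold higher in KO (53.2 to 275). The difference was 4.96 (3.65 to 6.27). Serpinb1a, an intracellular inhibitor of neutrophil proteases, stood at 2.81, 8.98, 2.09 and 127 CPM, a difference of 3.98 (3.42 to 4.55). In both genes the treated WT library was above each saline library and far below the treated KO library.

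Ltbp2, which is deposited on microfibrils and is related to the binding proteins of latent TGF-beta, stood at 11.8, 30.4, 9.67 and 264 CPM, a difference of 3.15 (2.87 to 3.42). The matricellular thrombospondin Thbs4 stood at 8.27, 34.8, 6.97 and 292 CPM, a difference of 3.06 (2.74 to 3.38). The order of the libraries was the same as for Spp1. Some members of this class rest on few reads in 1 library. Bmp10, a growth factor of the atrial and embryonic heart, stood at 1.37, 3.57, 0.0435 and 7.94 CPM, and its KO saline value is 1 read, so that the KO ratio of 107 has an interval from 28.3 to 6373. Sprr1a, which stressed cardiomyocytes make, stood at 0.156, 9.07, 0.0871 and 97.9 CPM with 2 reads in KO saline, and its difference of 3.86 reached from 1.62 to 6.10. C1qtnf3 stood at 0.195, 1.01, 0.131 and 23.9 CPM with 3 reads in KO saline, a difference of 4.76 (2.73 to 6.79).

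**Figure D3:**
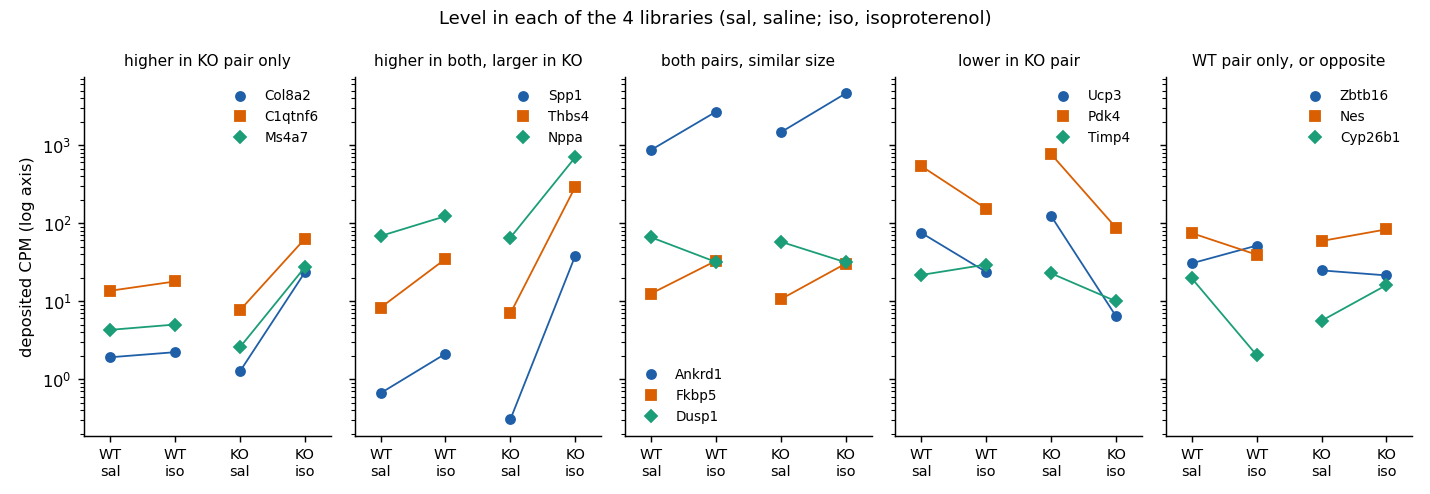
Deposited CPM on a log axis in the 4 libraries (1 point per library, no error bars, as each group is 1 library) for 15 genes in 5 panels, with lines joining saline to isoproterenol within a genotype. Col8a2 goes from 1.26 to 23.4 CPM in KO with 1.91 and 2.22 CPM in WT, Ankrd1 takes parallel steps in both genotypes, and Cyp26b1 falls from 19.6 to 2.03 CPM in WT and goes from 5.62 to 16.1 CPM in KO.

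A small set responded alike in both genotypes. Ankrd1 (ENSMUSG00000024803, chromosome 19, 36111961 to 36120099), a stretch-responsive cofactor of cardiomyocytes and a classic marker of load, stood at 867, 2678, 1461 and 4600 CPM. Both treated libraries were high, by 3.25-fold in WT (3.20 to 3.30) and 2.77-fold in KO (2.73 to 2.80), and the log2 difference was -0.23 (-0.26 to -0.20), or 0.03 with the CPM as deposited. Fkbp5, a cochaperone that answers to glucocorticoids, stood at 12.5, 32.9, 10.6 and 30.3 CPM, a difference of -0.14 (-0.43 to 0.15). Masp1, a protease of the lectin pathway of complement, stood at 5.77, 15.1, 8.32 and 25.8 CPM, a difference of 0.00 (-0.38 to 0.37). In these genes the 2 responses were of like size within the stated interval. Pam, which amidates peptide hormones, stood at 753, 1366, 792 and 1951 CPM with a difference of 0.18 (0.15 to 0.22).

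On the lower side Vldlr, a lipoprotein receptor, stood at 367, 179, 417 and 192 CPM, a difference of -0.35 (-0.42 to -0.27). Dusp1, a phosphatase that switches off MAP kinases, stood at 65.9, 31.8, 57.8 and 31.5 CPM, a difference of -0.08 (-0.27 to 0.11). Alox5, the lipoxygenase of leukotriene synthesis, stood at 17.8, 7.62, 17.3 and 7.99 CPM, a difference of -0.15 (-0.53 to 0.22). Each was low in both treated libraries. Of 21 measured immediate early genes the WT pair had 8 lower and the KO pair 5, with median responses of -0.53 and -0.27. The difference was above 0 for 18 of them and counted as higher for 1, Egr2, or for 4 with the CPM as deposited, and as lower for 0. Egr2 stood at 1.13, 1.25, 1.26 and 6.39 CPM, a difference of 1.91 (0.96 to 2.87).

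Genes lower in the KO pair had a median response of -0.19 (WT) and -1.19 (KO) over the 162 of the KO-only class, and of -1.02 and -2.20 over the 28 lower in both and larger in KO. Under both scalings 50 of the 162 were counted. Ucp3 (ENSMUSG00000032942, chromosome 7, 100472990 to 100486432), the muscle uncoupling protein of the inner mitochondrial membrane, stood at 74.9, 23.6, 123 and 6.39 CPM. Its KO saline library was the highest and its KO isoproterenol library the lowest, 21.8-fold lower in KO (18.2 to 26.5) against 3.02-fold lower in WT (2.73 to 3.34), and the difference was -2.85 (-3.15 to -2.55). The deleted gene P2ry6 lies near Ucp3 on chromosome 7, at 100937630 to 100974649, and the part of this position was not tested. Pdk4, the kinase that restrains glucose oxidation when fat is burned, stood at 537, 153, 765 and 87.2 CPM, a difference of -1.58 (-1.67 to -1.49). Ces1d, a triglyceride hydrolase, stood at 118, 41.8, 103 and 11.2 CPM, a difference of -1.96 (-2.19 to -1.73). Both treated libraries were low in these genes, the KO one lower.

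The same class held genes of excitation and contraction. Scn4b, a beta subunit of sodium channels, stood at 44.6, 16.1, 83.6 and 9.54 CPM, a difference of -1.91 (-2.20 to -1.63). Kcnv2, a modifying subunit of potassium channels, stood at 9.71, 2.9, 13.2 and 0.799 CPM, a difference of -2.52 (-3.36 to -1.68). Mylk4, a myosin light chain kinase family member, stood at 205, 79.3, 199 and 26.4 CPM, a difference of -1.81 (-1.96 to -1.65). Angptl4, a fasting-induced inhibitor of lipoprotein lipase, was counted in the KO pair only, at 4.8, 3.43, 15 and 2.66 CPM. Here the KO saline library was the high one, and the difference of -2.26 (-2.86 to -1.66) came mostly from there. The genotype ratio was 1.68 under saline and -0.58 under isoproterenol on the log2 scale.

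Responses of the WT pair alone were few, 4 higher and 5 lower. Gm21967, lower in WT only, had the largest difference among them, 2.08 (1.5 to 2.65), and stood at 9.36, 2.41, 4.83 and 6.34 CPM. Megf11, also lower in WT only, stood at 1.68, 0.483, 1.26 and 1.81 CPM, the second of them 10 reads, a difference of 2.0 (0.80 to 3.21). Gm15543, annotated as antisense, stood at 37.5, 94.5, 40.4 and 57.9 CPM, a difference of -1.07 (-1.24 to -0.90). Zbtb16, a zinc finger repressor that answers to glucocorticoids, stood at 30.6, 51.6, 24.8 and 21.4 CPM, a difference of -1.23 (-1.45 to -1.0). Hspb6, a small heat shock protein that is a substrate of protein kinase A, stood at 691, 1043, 831 and 879 CPM, a difference of -0.77 (-0.81 to -0.73) that was within 1.5-fold with the CPM as deposited. In these 3 genes higher in WT the treated WT library was the highest of the 4. Among the 5 lower in WT only, the intermediate filament Nes stood at 74.5, 39.4, 59.1 and 83.3 CPM, a difference of 1.16 (1.0 to 1.32). The stress factor Atf3 stood at 6.86, 2.85, 6.4 and 8.79 CPM, a difference of 1.46 (0.93 to 1.99). Mybpc2, the fast isoform of myosin-binding protein C, stood at 20.7, 9.41, 30.6 and 37.3 CPM, a difference of 1.16 (0.88 to 1.45). In all 5 the treated WT library was the lowest. With the spread of the additive fit this class held 0 higher and 1 lower.

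Gene lists were then read by their counts against the background of all members, 4.03% higher and 1.77% lower, and a median difference of 0.00. Collagen and matricellular genes had far more higher differences than the background. Of 18 measured fibrillar and network collagens 18 had a higher difference, with a median response of 0.76 in WT and 2.53 in KO, and 11 of them did so with the spread of the additive fit. Col1a1, the main fibrillar collagen, stood at 198, 424, 132 and 1634 CPM, a difference of 2.28 (2.20 to 2.35). Of 19 matricellular genes 17 were higher, with medians of 0.72 and 2.40. Postn, periostin, the matricellular product of activated fibroblasts, stood at 85.3, 328, 66.8 and 2062 CPM, a difference of 2.75 (2.64 to 2.85). For both the saline KO library was the lowest of the 4.

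Collagen processing followed with 10 of 20 higher. The crosslinking enzyme Lox stood at 4.84, 24, 4.66 and 227 CPM, a difference of 3.03 (2.64 to 3.43), and Loxl3 at 8, 13.4, 7.05 and 58.1 CPM. Of 17 proteoglycans 9 were higher, among them Fmod, which binds collagen fibrils, at 15.1, 14.7, 8.88 and 39.9 CPM. Proteases and inhibitors went both ways, with 8 of 20 higher and 1 lower. Timp1, an inhibitor of metalloproteinases, stood at 2.26, 8.4, 2.13 and 80.7 CPM, a difference of 3.09 (2.50 to 3.68), whereas Timp4 was the 1 lower. Basement membrane genes gave 1 of 13 higher, Col4a5, and integrins 2 of 14, against 5 of 13 and 5 of 14 with the CPM as deposited. Of 18 TGF-beta genes 5 were higher, including the ligands Tgfb3 at 20.2, 25.9, 17.7 and 69.9 CPM and Tgfb2 at 13.7, 12.1, 13.1 and 30.2 CPM.

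Immune lists were divided. Chemokines and receptors gave 8 of 17 higher and 0 lower, with a median response of -0.24 in WT and 0.88 in KO. Ccr2, the receptor of recruited monocytes, stood at 4.1, 5.07, 4.79 and 20.8 CPM, a difference of 1.55 (1.06 to 2.05), and Ccl8 at 0.897, 1.25, 0.914 and 7.51 CPM. The lysosome list gave 7 of 23, led by the cathepsins Ctsk and Ctss, and complement 5 of 16, led by C1qb and C1qa. C1qb stood at 56.5, 47.6, 46.6 and 124 CPM, a difference of 1.40 (1.24 to 1.56). Interferon-induced genes gave 2 higher and 1 lower of 18. The list of MHC class II and antigen presentation gave 0 of 14, with a median of -0.03, or 0.23 with the CPM as deposited.

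Cell cycle genes gave 9 of 22 higher with a median difference of 1.61, although 17 of the 22 were higher in the KO pair. Mki67, a marker of dividing cells, stood at 8.93, 9.8, 4.27 and 19.2 CPM, a difference of 1.77 (1.35 to 2.19). Top2a, the topoisomerase of dividing cells, stood at 6.01, 8.06, 3.18 and 18.6 CPM, a difference of 1.86 (1.38 to 2.34). For both the KO saline library was the lowest, and the genotype ratio of the list had a median of -0.43 under saline and 0.74 under isoproterenol. Cell cycle differences therefore held a saline part as well as an isoproterenol part.

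Of 19 measured hypertrophy markers 9 had a higher difference and 0 a lower one, 17 were above 0, and 13 were counted with the CPM as deposited. Nppa, which encodes the atrial natriuretic peptide, stood at 68.5, 123, 65.3 and 700 CPM, a difference of 2.33 (2.21 to 2.44), and Uchl1, a ubiquitin hydrolase, at 6.59, 8.35, 4.88 and 31.9 CPM. The filament protein Xirp2 stood at 372, 397, 506 and 1473 CPM, a difference of 1.19 (1.14 to 1.24). Myh7, the slow myosin of the fetal programme, stood at 210, 163, 253 and 323 CPM, and its difference of 0.46 (0.38 to 0.54) lay within 1.5-fold but was counted, at 0.71, with the CPM as deposited. Acta1, skeletal actin, stood at 398, 481, 807 and 1682 CPM, and its difference of 0.53 (0.48 to 0.58) was not counted either, but was, at 0.79, with the CPM as deposited. The tubulin and cytoskeleton list gave 9 of 20 higher and 2 lower: Tubb3 and Tuba1a were among the higher, and Tuba4a, at 507, 421, 508 and 213 CPM, was lower by a difference of -1.25 (-1.31 to -1.18).

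Fat oxidation genes had lower differences more often than the background under TMM. Of 24 genes of fatty acid uptake and oxidation 13 had a lower difference and 0 a higher one, with a median response of -0.32 in WT and -0.98 in KO; with the CPM as deposited 3 of the 24 were counted, and with the spread of the additive fit 0. Hadh, a dehydrogenase of beta-oxidation, stood at 619, 509, 621 and 309 CPM, a difference of -0.98 (-1.04 to -0.92). Ech1, an isomerase of the same pathway, stood at 1022, 630, 991 and 384 CPM, a difference of -0.93 (-0.97 to -0.88). Targets of PPAR-alpha, the fatty acid receptor that drives this pathway, gave 8 of 14 lower, 5 with the CPM as deposited and 3 with the spread of the additive fit. Ucp3, Angptl4 and Pdk4 led them. All 24 fat oxidation genes were below 0 under TMM.

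Mitochondrially encoded proteins were lower in 8 of 13, or 1 with the CPM as deposited, and their median response was 0.14 (WT) and -0.72 (KO). In mt-Nd5, a subunit of complex I, the libraries stood at 27430, 30727, 29995 and 20777 CPM, a difference of -0.95 (-0.96 to -0.94). Nuclear subunits of complex I gave 0 of 24 and those of complexes III to V 2 of 25, at median differences of -0.44 and -0.43: the shift was common to the lists but below 1.5-fold. Enzymes of the TCA cycle gave 2 of 21 and those of branched-chain amino acid breakdown 4 of 18, and with the CPM as deposited 0 of each. Mitochondrial ribosomal proteins gave 0 of 22 with a median of -0.25, or 0.00 with the CPM as deposited. Glycolysis gave 0 higher and 2 lower of 21, and its median of -0.08 became 0.18 with the CPM as deposited.

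**Figure D4:**
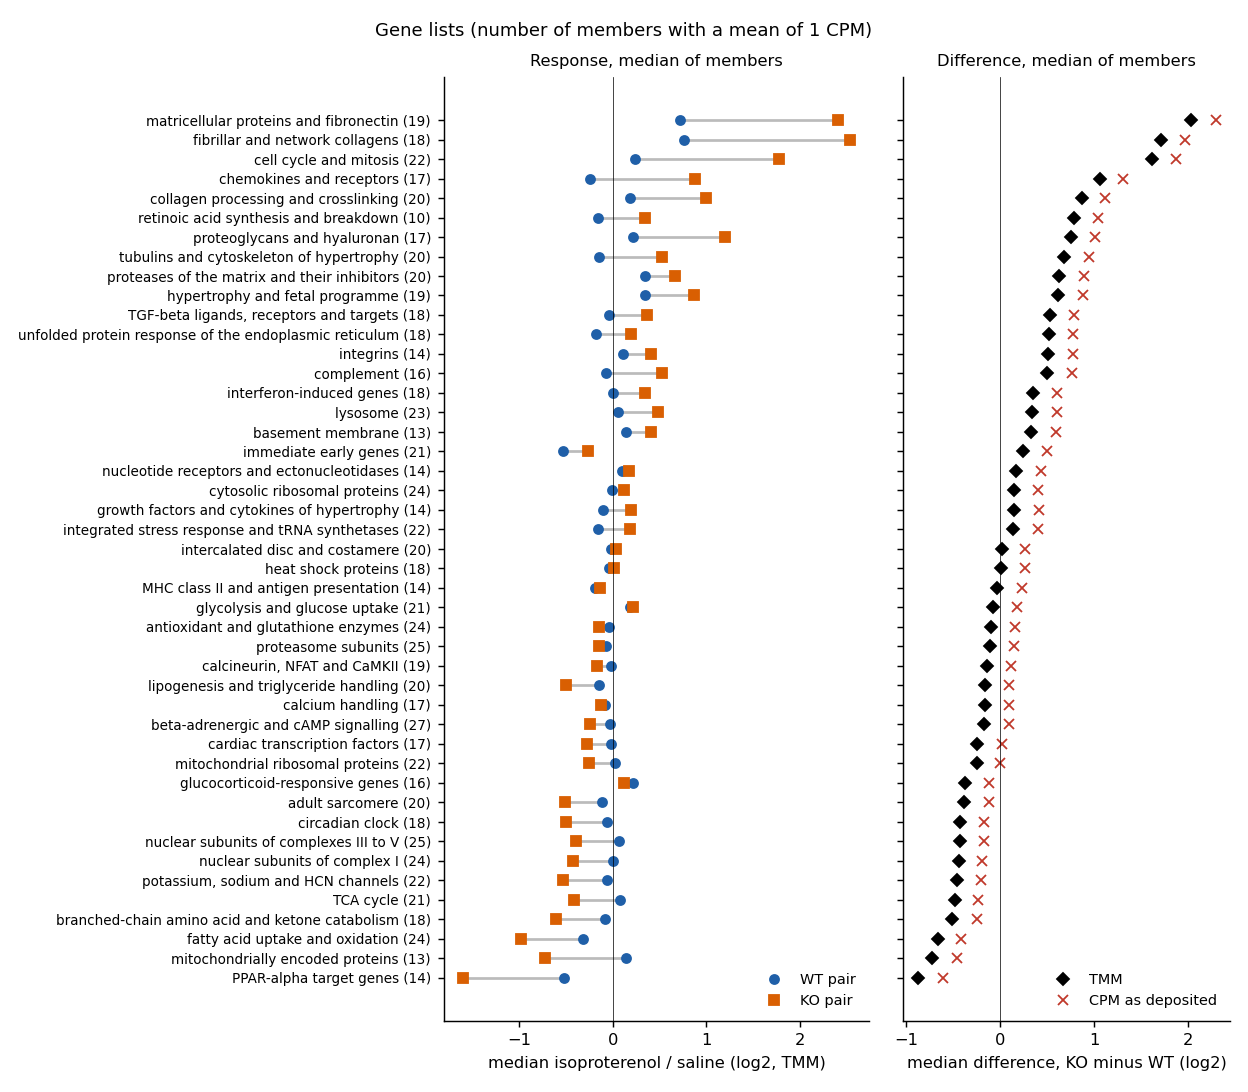
Left, the median log2 ratio of isoproterenol to saline over the measured members of each list (their number in parentheses) in WT and KO; right, the median difference KO minus WT, after TMM and in the CPM as deposited. Matricellular genes (2.03) and collagens (1.71) are at the top and PPAR-alpha targets (-0.87) at the bottom; crosses lie about 0.26 to the right of diamonds, so lists near 0, from MHC class II to cardiac transcription factors, change sign with the scaling.

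Contraction, calcium and rhythm genes were lower in part. Of 20 adult sarcomere genes 4 were lower and 0 higher. Myl2, the ventricular light chain, stood at 8075, 6635, 8509 and 4603 CPM, a difference of -0.86 (-0.88 to -0.85), and Tcap, the titin cap, at 1181, 1145, 1097 and 659 CPM. Calcium handling gave 3 of 17 lower. Atp2a2, the calcium pump SERCA2a, stood at 13826, 8441, 13804 and 5494 CPM, a difference of -0.87 (-0.89 to -0.86), with both treated libraries low. The list's median of -0.16 became 0.09 with the CPM as deposited, so its direction is not fixed. Channels gave 4 of 22 lower and 1 higher. Intercalated disc genes gave 0 of 20.

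The receptor pathways addressed by the drug and by the deleted gene are read beside 4.03% higher and 1.77% lower over all members. Of 27 genes of beta-adrenergic and cAMP signalling 1 was higher and 2 lower, and the median of -0.17 became 0.09 with the CPM as deposited. Grk5, a kinase that desensitizes these receptors, stood at 27.1, 28, 25.5 and 62.7 CPM, a difference of 1.0 (0.78 to 1.21). Of the 2 lower genes, Adra1a encodes the alpha-1A receptor, which is not a beta receptor. It stood at 12.3, 6.95, 13.9 and 3.3 CPM, a difference of -1.50 (-1.98 to -1.02). The other, Gnas, stood at 7.92, 5.41, 14 and 5.33 CPM. Its difference of -1.10 (-1.56 to -0.64) was not counted with the CPM as deposited. Of 14 nucleotide receptors and ectonucleotidases 0 were counted either way. In the calcineurin list Rcan1, a feedback inhibitor that calcineurin induces, stood at 65.8, 65.5, 76.8 and 176 CPM, a difference of 0.94 (0.81 to 1.08), and of 19 genes 1 was higher and 1 lower. Igf1, a growth factor, stood at 16.2, 21.5, 15.2 and 55.2 CPM, a difference of 1.20 (0.94 to 1.46).

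Clock genes gave 1 higher and 5 lower of 18, and 2 and 0 with the CPM as deposited. Arntl, the activator BMAL1, stood at 4.56, 2.99, 6.49 and 15.7 CPM, a difference of 1.62 (1.09 to 2.15). Dbp, an output gene that BMAL1 drives, stood at 89.6, 88.1, 83.7 and 51 CPM, a difference of -0.95 (-1.09 to -0.80), and Ciart, a repressor, at 17.1, 18, 14.3 and 7.99 CPM. Arntl was high and the others low in the treated KO library; the part of the hour of collection was not tested. Glucocorticoid-responsive genes were mixed as well, with 1 higher and 5 lower of 16, and 3 and 2 with the CPM as deposited: Zbtb16 and Fkbp5, both above, differed in class, and the growth arrest gene Cdkn1a was higher by a difference of 1.08 (0.81 to 1.35).

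Stress lists differed among themselves. Genes of the integrated stress response gave 4 of 22 higher, with a median difference of 0.14, among them the folate enzyme Mthfd2 at 2.85, 2.32, 3.22 and 11.8 CPM. The unfolded protein response gave 2 higher and 1 lower of 18 with a median difference of 0.52, and 8 higher and 0 lower with the CPM as deposited. Heat shock proteins gave 0 higher and 1 lower of 18, the proteasome 0 of 25 and cytosolic ribosomal proteins 0 of 24.

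Markers of cell types were read in the same way. Some of them, such as Col1a1, Postn and C1qb, are also members of lists above, so the marker lists are not independent of those. The 8 markers of activated fibroblasts summed to 371, 672, 278 and 3205 CPM and 6 of 8 had a higher difference. Postn made up most of the last sum, at 2062 CPM, and the list's median difference was 2.41. The 10 general fibroblast markers summed to 2718, 2863, 2415 and 4383 CPM, with 3 of 10 higher, Col1a1, Mfap5 and Lum. Col1a1 alone, at 198, 424, 132 and 1634 CPM, made up most of the rise of this sum in KO. The list's median difference was 0.40, with 8 of 10 above 0. The 16 macrophage markers summed to 528, 510, 477 and 1093 CPM, with 8 of 16 higher. Adgre1, which encodes F4/80, stood at 22.1, 18.6, 17.4 and 50 CPM, a difference of 1.51 (1.26 to 1.76). The 10 smooth muscle and pericyte markers summed to 3217, 3300, 3271 and 5883 CPM with 1 of 10 higher, Des. This gene, for the filament protein desmin, is abundant in heart muscle cells too and stood at 1743, 1860, 1967 and 4380 CPM, most of each sum, and the list's median ratio of KO to WT under isoproterenol was -0.01. In each of these lists the treated KO library had the highest sum. The part of cell numbers in the matrix, immune and lysosome results was not tested.

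Few markers of other cell types were counted. The 10 cardiomyocyte markers summed to 72404, 68116, 72185 and 61373 CPM with 0 higher and 1 lower, Myl2, and a median difference of -0.30, or -0.05 with the CPM as deposited. Of 11 endothelial markers 0 were counted. Of 7 atrial markers 2 were higher, Bmp10 and Myl4, while their sum was 249, 194, 170 and 237 CPM and their median difference 0.57. The 4 of 8 epicardial and mesothelial markers measured had 0 counted, all above 0, and a median of 0.60. Adipocyte markers, 6 of 8 measured, summed to 16.6, 24.2, 7.53 and 9.48 CPM with 0 counted and a median difference of -0.78. Most markers of lymphocytes (9 of 11), neutrophils (5 of 8) and skeletal muscle (8 of 11, the fast myosins Myh1, Myh2 and Myh4 included) had a mean below 1 CPM. The parts of atrial, fat or skeletal muscle tissue in Bmp10, Angptl4 and Tnnt3 were not tested.

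**Figure D5:**
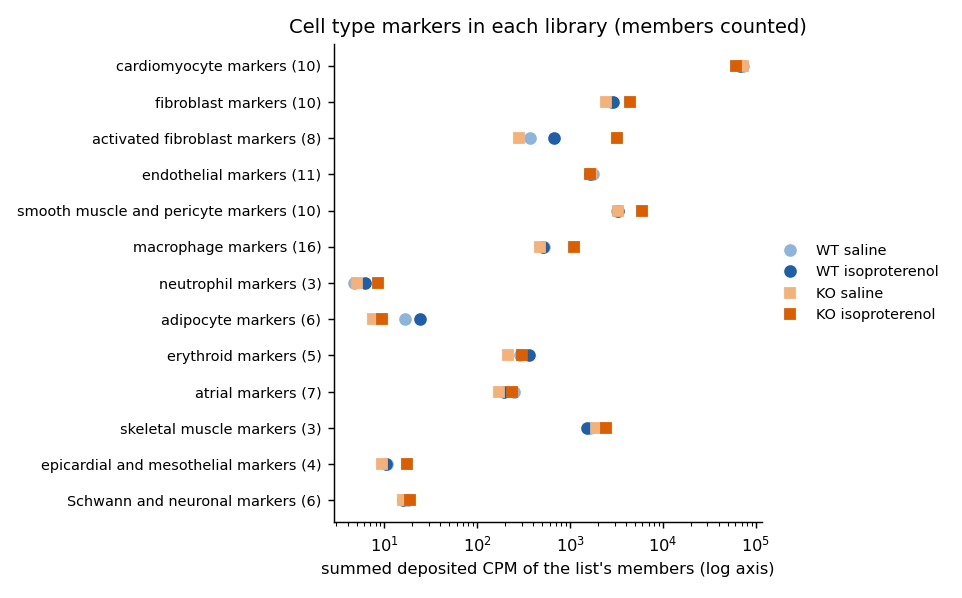
Summed deposited CPM of each list of cell type markers (log axis, number of members in parentheses) in the 4 libraries, 1 point per library without error bars. Activated fibroblast markers reach 3205 CPM and macrophage markers 1093 CPM in the KO isoproterenol library, while the endothelial and cardiomyocyte sums of the 4 libraries nearly coincide.

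The level of a gene set what could be seen. Among 1765 members with a mean of 1 to 3 CPM the 95% interval of the difference reached 0.95 to each side at the median, and among the 320 members above 300 CPM 0.05. Of those 320, 5.94% were higher and 12.8% lower, with a median difference of -0.34, while of the 1765 5.1% were higher and 0.907% lower. By position the share of members counted ran from 3.69% on chromosome 17 to 7.32% on chromosome 6, apart from the mitochondrial genome with 9 of 17 lower and 6 members on Y with 0. Near the minimum mean of 1 CPM lay Palb2, a DNA repair protein, inside it at 0.741, 1.01, 1.09 and 1.17 CPM, and Mas1, a receptor of the angiotensin system, outside it at 0.663, 1.25, 1.44 and 0.639 CPM. The filter admitted 64 members that reached 1 CPM in a single library, 61 of them in KO isoproterenol, and 22 of the 64 were counted. Of the 12449 members at 1 CPM or more in all 4 libraries 445 were higher and 217 lower.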

How the data were processed

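Stranded poly(A) libraries of ventricular RNA were prepared with 1 library per group, per the labels' protocols. The authors deposited CPM for each gene and library, in 1 table. HTSeq and the build GRCm38.p4 (mm10) are named per the submitters' processing notes; the aligner, annotation release and settings were not given in the sources used here. Table columns headed by genotype alone were taken as saline, since the others name the treatment. In every column 100% of values were whole multiples of 1 read within 0.01 reads, so reads were recovered. Depth was 18771198 to 25637369 reads, and 1 read equals 0.03901 to 0.05327 CPM. Positions came from GENCODE M21 (GRCm38) for 13011 of 13041 members.

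Ratios of reads (0.5 added) were scaled by TMM (edgeR 4.0.16). Ratios of 2 libraries carry exact conditional 95% intervals, and differences of log2 ratios intervals from the 4 counts (scipy 1.17.1). Both were tested on simulated counts. Classes follow from intervals beyond 1.5-fold in each pair and in the difference. With 1 library per group a model with the difference as a term has no residual degrees of freedom, so the difference has no test. Alternatives were DESeq2 1.42.0 size factors, unscaled CPM, TMM without mitochondrial genes, other filters, folds and intervals, and edgeR dispersions added to the error. Members and the 59 gene lists were chosen with earlier results of these data known. Genes were named by the interval bound nearest to no difference within each class and list, plus members that define a list; Nppb, Myh7, Acta1, Xirp2, Palb2, Mas1 and the guanosine triphosphatases and guanylate-binding proteins of the closing section were named after their values were seen. Some of the genes chosen this way are not reported here.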

Additional observations from a re-analysis of the deposited data

Results flagged for a closer look

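Cyp26b1 had opposite responses in the 2 genotypes, lower with isoproterenol in the WT pair and higher in the KO pair, with a difference of 4.52 on the log2 scale. Each genotype is 1 pair of libraries, and the difference was not tested against any spread between mice.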

How the results depend on the processing

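With DESeq2 size factors, TMM without mitochondrial genes, a mean of at least 10 reads and the 99% interval, every count of differences and classes stayed within 1.5 times its value, and no counted difference of a named gene changed sign under any scaling tried. With unscaled CPM the higher and lower differences became 1016 and 80, the KO-only class 806 and 50, the WT-only class 2 and 11, the opposite class 2, and genes higher and lower in KO under isoproterenol 973 and 106. With a 2-fold threshold the differences were 209 and 45, the KO-only class 175 and 33, the WT-only class 0 and 1 and the shared class 38 and 20. With the dispersion of the additive fit these were 171 and 34, 147 and 22, 0 and 1, and 40 and 26. With that of the saline pair the lower differences were 94, the KO-only lower class 61 and the WT-only higher class 1. By log2(CPM + 1) without interval the higher differences were 2313, the KO-only higher class 1582, the WT-only class 8 and 49, the shared class 150 and 147 and the opposite class 5. With a mean of at least 10 CPM the higher differences were 305, the KO-only higher class 238 and the WT-only lower class 2, and with no filter the WT-only higher class was 7. The alternatives' own construction changes which genes and intervals enter; other causes were not tested. No paired analysis was possible because each group holds 1 library. Low counts limit genes below 3 CPM most.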

Other observations

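Several immunity-related guanosine triphosphatases, interferon-inducible proteins that attack the vacuoles of intracellular pathogens, were low in the treated KO library, and others were not. Iigp1 (chromosome 18, 60376027 to 60392634) stood at 274, 248, 239 and 115 CPM in the order used above, a log2 difference of -1.17 (-1.26 to -1.08). Its neighbours Gm4841 and F830016B08Rik stood at 28.9, 36.1, 25.9 and 8.58 CPM and at 23, 30, 26.2 and 8.58 CPM, and the nearby pseudogene BC023105 at 85.6, 82.5, 79 and 14.5 CPM, a difference of -2.64 (-2.85 to -2.44). The related Gm4951, on the same stretch of chromosome 18, stood at 5.46, 5.55, 5.75 and 5.33 CPM. These copies resemble each other, and how reads that match several of them were counted was not given, so their separate levels are uncertain. On chromosome 11 Igtp stood at 140, 140, 120 and 59 CPM, a difference of -1.28 (-1.40 to -1.16), and Irgm2 at 202, 192, 176 and 89.2 CPM, a difference of -1.16 (-1.26 to -1.06). The annotated spans of Igtp and Irgm2 overlap on the same strand. Irgm1 stood at 81.2, 69, 72.2 and 49.9 CPM and its difference of -0.55 (-0.70 to -0.40) was not counted.

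Guanylate-binding proteins, another interferon-inducible family, were not uniform. Gbp6 stood at 31.6, 25.2, 32.8 and 14.6 CPM, a difference of -1.10 (-1.35 to -0.84), whereas Gbp2 stood at 38.1, 31.5, 28.6 and 38.3 CPM, a difference of 0.44. The interferon-induced Isg15 stood at 8.66, 7.38, 5.44 and 11.4 CPM, a difference of 1.04 (0.60 to 1.47). These genes were picked after their values were seen and were not tested as a group.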
